A study of Mus musculus with 6 samples.

Results

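Kupffer cells, the resident macrophages of the liver, and macrophages and other myeloid cells in general were followed here through 33 genes, given by name and read in whole-liver RNA. Of these, 6 are restricted among liver cells to Kupffer cells or to resident macrophages like them (Clec4f, Vsig4, Cd5l, Marco, Folr2 and Cd163). The other 27, called general myeloid here, are shared with other myeloid cells or leukocytes, and some, such as Mrc1, also with cells of other kinds. Whole-liver RNA does not tell which cells a transcript came from. All 33 had a probe set of their own among the 12393 genes of the array that did, and together they had 45 of the 20380 probe sets paired with exactly 1 gene. RNA came from livers of wild-type male C57Bl/6 mice on the Affymetrix Mouse Genome 430A 2.0 array, 2 arrays for each of 3 groups. The groups received recombinant FGF19, purified FGF15 or vehicle by injection into the jugular vein, and livers were taken 6 h later. Mice of all 3 groups were without food during the 6 h. Neither ages nor doses are given, and what the vehicle contained is not stated. Nor do the labels say if each array stands for 1 mouse, so the p-values measure the spread between arrays, which may be technical.

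Kupffer cells line the sinusoids, where they take up bacteria, immune complexes, aged red cells and free haemoglobin from portal blood. They depend on signalling through the receptor of colony-stimulating factor 1, and the transcription factor PU.1 is required for macrophage genes at large. FGF15 of the mouse, whose counterpart in humans is FGF19, is secreted by the ileum, and both act on liver through the receptor FGFR4 with its co-receptor β-Klotho, which hepatocytes carry. The comparisons ask how transcripts of the macrophages in the same livers stood after each hormone, and whether the hormones differed.

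Values are the deposited signal intensities, on a linear scale, of the probe set with the highest mean for each gene. Differences and folds are on the scale of log2(signal + 32), which understates the change of genes with low signals. They come from limma's fit over all 9692 genes that passed a filter on low signals, and a gene is said to rise or fall at a Benjamini-Hochberg adjusted p under 0.05. All 33 genes passed the filter, which lay at a mean signal of about 14.0. Every array had the same trimmed mean, but the median signal was 50.8 to 52.2 with FGF19, 51.3 to 55.2 with FGF15 and 59.4 to 61.4 with vehicle. The median difference over all genes was -0.07 for FGF19 and -0.05 for FGF15, each against vehicle, and it became 0.07 and 0.07 when arrays were centred on their medians. FGF19 replicate 1 stood apart in its β-actin control, with a 3' to 5' ratio of 1.63 against 1.30 to 1.39 on the other 5 arrays, a ratio that is higher in degraded RNA.

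Most of the macrophage genes were lower after either hormone. With FGF19, 19 of 33 fell and 0 rose in limma's test, where 7.26% of all genes fell and 6.27% rose (13.5% in either direction). With FGF15, 20 of 33 fell and 0 rose, where 6.64% of all genes fell and 5.87% rose (12.5% in either direction). At an unadjusted p under 0.05 the numbers were 24 lower and 0 higher with FGF19, and 26 lower and 0 higher with FGF15. Of all genes, 17.1% were lower and 11.1% higher with FGF19 at that threshold, and 15.1% lower and 11.1% higher with FGF15. The median log2 difference of the 33 genes was -0.52 with FGF19 and -0.53 with FGF15. Both FGF19 arrays lay below both vehicle arrays for 32 of the 33 genes, as they did for 37.2% of all genes, and both FGF15 arrays did for 28, against 32.7% of all genes. In each comparison 1 gene had both hormone arrays above both vehicle arrays, against 21.4% of all genes with FGF19 and 22.2% with FGF15. The 2 comparisons share the vehicle arrays. With each array centred on its median, 15 genes fell with FGF19 and 16 with FGF15. The shares of all genes above come from the fit to all 6 arrays as deposited, and none were computed under other settings. Without FGF15 replicate 2 the number that fell with FGF15 was 12, and without vehicle replicate 1 it was 13. The call of each gene was recomputed under 18 alternatives, 6 that leave out an array and 12 others, and a fit over all probe sets was used besides. In RNA of whole liver, fewer cells of a type and less RNA in each of its cells cannot be told apart.

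Among the Kupffer-restricted genes, 5 of 6 fell with FGF19 and 5 of 6 with FGF15. Clec4f (probe set 1449905_at) encodes a C-type lectin of Kupffer cells. Its signal was 326 and 305 with FGF19 and 366 and 375 with FGF15, against 683 and 639 with vehicle. Every hormone array thus lay well under both vehicle arrays, by 1.99-fold with FGF19 (log2 difference 95% interval -1.17 to -0.83, limma adjusted p = 2.44e-05) and 1.72-fold with FGF15 (-0.78 ± 0.08, SE, n = 2 arrays per group, limma adjusted p = 1.47e-04). Vsig4 (1451651_at), a complement receptor of the immunoglobulin superfamily, read 284 and 281 with FGF19 and 377 and 324 with FGF15, against 694 and 632 with vehicle. It had the largest fall of the 33 genes with FGF19, at 2.21-fold (-1.14 ± 0.09, limma adjusted p = 2.77e-05), and fell 1.82-fold with FGF15 (-0.86 ± 0.09, limma adjusted p = 2.14e-04). Cd5l (1449193_at) encodes a scavenger protein secreted by macrophages, and read 667 and 667 with FGF19 and 545 and 705 with FGF15, against 1200.3 and 1194 with vehicle. The FGF19 arrays were close together and inside the range of the FGF15 arrays, and the falls were 1.76-fold and 1.88-fold (limma adjusted p = 6.11e-04 with FGF19 and adjusted p = 3.13e-04 with FGF15). These genes, taken as the defining markers of Kupffer cells, were well above the filter on all 6 arrays.

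Folr2 (1451648_a_at), the folate receptor of resident macrophages, read 73.4 and 73.0 with FGF19 and 83.1 and 91.6 with FGF15, against 130.1 and 140.1 with vehicle. It fell with FGF19 (-0.67 ± 0.12, limma adjusted p = 0.00486) and with FGF15 (-0.49 ± 0.12, limma adjusted p = 0.0249), but the call with FGF15 ended without vehicle replicate 1 (0.0871), without vehicle replicate 2 (0.134), without FGF15 replicate 1 (0.0979) or without FGF15 replicate 2 (0.0605), and under 4 of the 12 other alternatives (0.0509 to 0.079). Cd163 (1419144_at), the scavenger receptor for haemoglobin bound to haptoglobin, read 163 and 159 with FGF19 and 209 and 183 with FGF15, against 237 and 254 with vehicle. Again the groups did not overlap, yet only the difference with FGF19 passed (-0.52 ± 0.10, limma adjusted p = 0.00664), and it did not pass without vehicle replicate 2 (0.0573). With FGF15 the difference was -0.28 ± 0.10 (limma adjusted p = 0.092). The difference of Cd163 between the hormones did not pass either, at -0.24 ± 0.10 for FGF19 minus FGF15 (limma adjusted p = 0.255). Marco (1449498_at), a scavenger receptor for bacteria, was the exception. It read 101 and 88.8 with FGF19 and 25.5 and 37.0 with FGF15, against 64.9 and 77.0 with vehicle, so that the FGF19 arrays lay above and the FGF15 arrays below the vehicle arrays. The fall with FGF15 passed (-0.71 ± 0.15, limma adjusted p = 0.0147), though not without vehicle replicate 2 (0.0964) or without FGF15 replicate 1 (0.0701). With FGF19 the difference did not pass (0.30 ± 0.15, limma adjusted p = 0.234).

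**Figure D1:**
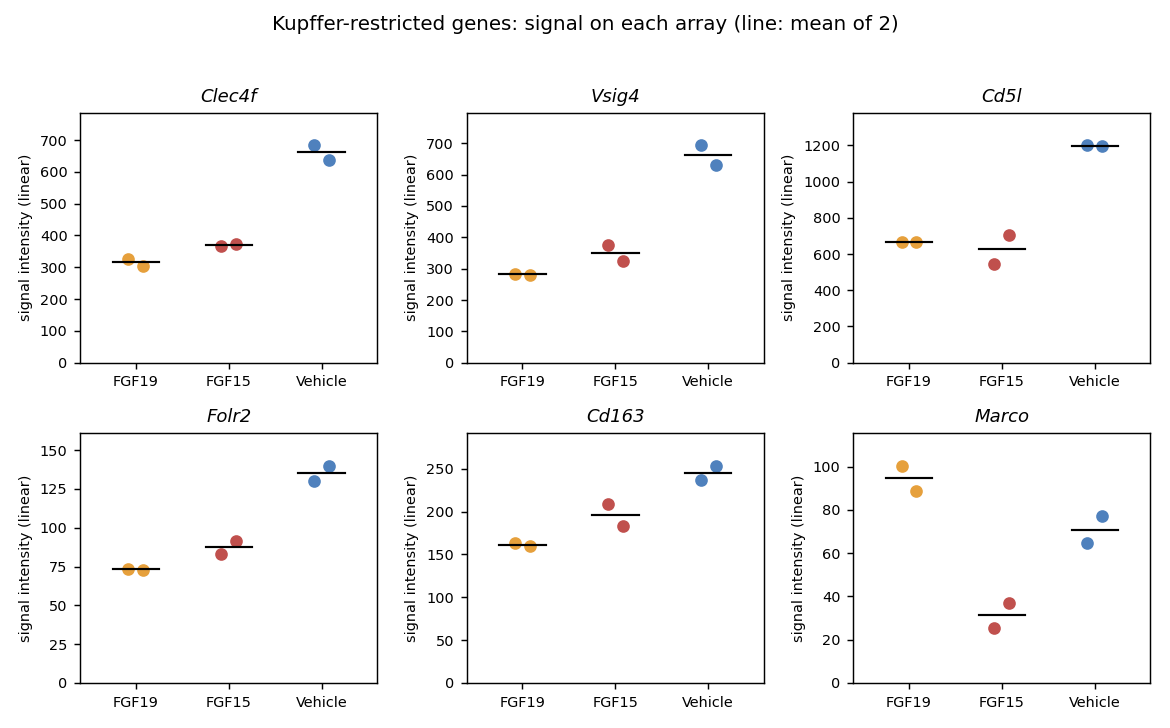
Signal intensity (linear) of the 6 Kupffer-restricted genes on each array, by group, with a line at the mean of the 2 arrays. In 5 of the panels all 4 hormone arrays lie below both vehicle arrays, and in the panel of Marco the FGF19 arrays lie highest.

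Upstream sequence is shown for 3 Kupffer-restricted genes that fell with both hormones (Clec4f, Vsig4 and Cd5l), for 2 chains of C1q, which fell with them, for Marco, which differed between the hormones, and for Mpeg1, which had the largest fall with FGF15. Each run is the 250 bases before the annotated start of the gene, from RefSeq on GRCm38.p6, read 5′ to 3′ on the strand of the gene. Capitals mark matches on either strand to GAGGAA or GGAAGT, core letters of sites bound by PU.1 and other ETS factors.
Clec4f: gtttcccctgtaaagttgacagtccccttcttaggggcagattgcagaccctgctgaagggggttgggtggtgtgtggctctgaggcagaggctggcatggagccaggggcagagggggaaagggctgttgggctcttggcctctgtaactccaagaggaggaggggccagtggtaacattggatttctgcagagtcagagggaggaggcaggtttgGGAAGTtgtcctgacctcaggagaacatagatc
Vsig4: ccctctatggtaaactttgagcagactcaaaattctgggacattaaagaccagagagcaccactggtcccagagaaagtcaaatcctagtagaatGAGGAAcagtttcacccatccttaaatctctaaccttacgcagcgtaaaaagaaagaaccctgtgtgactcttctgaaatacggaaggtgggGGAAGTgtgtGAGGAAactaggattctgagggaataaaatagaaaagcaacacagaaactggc
Cd5l: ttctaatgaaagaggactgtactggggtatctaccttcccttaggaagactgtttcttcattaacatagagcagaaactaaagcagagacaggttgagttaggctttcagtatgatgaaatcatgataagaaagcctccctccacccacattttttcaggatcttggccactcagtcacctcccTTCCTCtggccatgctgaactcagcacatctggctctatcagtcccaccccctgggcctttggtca
Marco: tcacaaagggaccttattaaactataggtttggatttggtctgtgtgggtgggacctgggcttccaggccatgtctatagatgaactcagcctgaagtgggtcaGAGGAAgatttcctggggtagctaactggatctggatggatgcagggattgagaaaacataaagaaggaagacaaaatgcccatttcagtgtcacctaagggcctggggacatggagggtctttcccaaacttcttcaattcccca
C1qb: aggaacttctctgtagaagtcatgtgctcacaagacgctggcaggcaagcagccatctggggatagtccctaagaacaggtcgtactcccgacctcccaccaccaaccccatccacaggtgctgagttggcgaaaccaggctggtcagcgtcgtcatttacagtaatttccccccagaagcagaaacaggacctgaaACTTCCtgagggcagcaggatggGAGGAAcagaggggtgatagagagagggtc
C1qc: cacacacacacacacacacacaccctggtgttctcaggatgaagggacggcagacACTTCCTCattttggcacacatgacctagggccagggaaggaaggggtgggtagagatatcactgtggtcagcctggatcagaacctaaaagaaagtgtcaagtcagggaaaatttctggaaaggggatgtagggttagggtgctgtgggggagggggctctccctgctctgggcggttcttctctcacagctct
Mpeg1: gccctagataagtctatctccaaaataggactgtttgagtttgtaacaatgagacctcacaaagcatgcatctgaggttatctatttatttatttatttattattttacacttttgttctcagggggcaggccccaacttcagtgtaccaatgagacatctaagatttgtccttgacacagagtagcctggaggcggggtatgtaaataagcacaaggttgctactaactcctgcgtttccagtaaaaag
The windows lie at chr6:83656117-83656366 (- strand) for Clec4f, chrX:96293439-96293688 (- strand) for Vsig4, chr3:87357631-87357880 (+ strand) for Cd5l, chr1:120505025-120505274 (- strand) for Marco, chr4:136886201-136886450 (- strand) for C1qb, chr4:136892915-136893164 (- strand) for C1qc and chr19:12460520-12460769 (+ strand) for Mpeg1. The window of Mpeg1 held no match.

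Of the 33 genes, 25 were matched by symbol to such a window outside chromosome 18. Windows on chromosome 18, where Csf1r lies, were left out for the 33 genes but kept in the shares of all genes. GAGGAA stood in a window of 15 of these 25 genes (60%), against 25.9% of 27025 genes with a window. GGAAGT stood in 11 (44%), against 22.2%. Longer forms that contain those letters were rarer, with GAGGAAG in 9 of 25 (36%, against 12%), AGGAAGT in 8 (32%, against 8.8%) and GAGGAAGT in 2 (8%, against 2.79%). TGCTGA, the core of a MAF half-site, stood in 9 (36%, against 18%), and the E-box CACGTG in 1, Lgmn (4%, against 6.86%). Both strands were searched, matches to GAGGAA and GGAAGT may overlap, and a match of letters is no evidence of binding. The 7 strings were settled on with such counts in view, so the shares describe these windows and were not tested. Genes with matches included ones that fell with both hormones, such as Vsig4 and C1qc, and ones that passed in neither comparison with vehicle, such as Mrc1 and Ptprc. Marco, whose response differed between the hormones, also held a match.

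The 3 chains of C1q, the recognition unit of the classical complement pathway, which macrophages make, fell together with each hormone. C1qa (1417381_at) read 269 and 277 with FGF19 and 297 and 302 with FGF15, against 524 and 613 with vehicle. C1qb (1417063_at) read 315 and 329 with FGF19 and 329.7 and 309 with FGF15, against 502 and 519 with vehicle. C1qc (1449401_at) read 354 and 366 with FGF19 and 425 and 437 with FGF15, against 742 and 735 with vehicle. For each chain all 4 hormone arrays lay below both vehicle arrays. The falls with FGF19 were 1.96-fold for C1qa, 1.53-fold for C1qb and 1.97-fold for C1qc, and those with FGF15 were 1.81-fold, 1.55-fold and 1.67-fold in the same order. The limma adjusted p was 6.11e-04 or less with FGF19 and 5.95e-04 or less with FGF15, and these calls were kept under all 18 alternatives. The other probe sets of C1qb gave -0.55 and -0.48 with FGF19 and -0.69 and -0.68 with FGF15.

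Of the 7 other receptors and proteins of tissue macrophages, 4 fell with FGF19 and 4 with FGF15. Csf1r (1419872_at), the receptor for colony-stimulating factor 1, on which macrophages depend, read 571 and 550.2 with FGF19 and 610.0 and 625 with FGF15, against 1056 and 977 with vehicle. Its fall was 1.77-fold with FGF19 (limma adjusted p = 4.68e-05) and 1.61-fold with FGF15 (limma adjusted p = 1.87e-04), kept under all 18 alternatives, and its other probe sets gave -0.60 and -0.78 with FGF19 and -0.50 and -0.57 with FGF15. Adgre1 (1451161_a_at), an adhesion receptor used as a macrophage marker, read 122 and 118 with FGF19 and 146 and 113 with FGF15, against 223 and 202 with vehicle. It fell with FGF19 (-0.68 ± 0.12, limma adjusted p = 0.00522, but not without vehicle replicate 1 (0.0532)) and with FGF15 (-0.60 ± 0.12, limma adjusted p = 0.0104, but not without vehicle replicate 1 (0.0893) or without FGF15 replicate 2 (0.0653)). Mpeg1 (1427076_at), which encodes a pore-forming protein of macrophages, read 438 and 429 with FGF19 and 287 and 305 with FGF15, against 717 and 734 with vehicle. It had the largest fall of the 33 genes with FGF15, at 2.31-fold (-1.21 ± 0.07, limma adjusted p = 5.60e-06), and fell 1.63-fold with FGF19 (-0.70 ± 0.07, limma adjusted p = 1.78e-04).

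Slc40a1 (1417061_at), the iron exporter ferroportin, read 856 and 902 with FGF19 and 795 and 803 with FGF15, against 1095 and 1092 with vehicle. The groups did not overlap, and the differences were -0.31 ± 0.06 with FGF19 (limma adjusted p = 0.0114) and -0.44 ± 0.06 with FGF15 (limma adjusted p = 0.00168). The call with FGF19 ended without vehicle replicate 1 (0.0865), without vehicle replicate 2 (0.0746) or without FGF19 replicate 1 (0.0571), and under 2 of the 12 other alternatives (0.0846 to 0.206). Its other probe set, 1448566_at, gave -0.67 with FGF19 (limma over all probe sets, adjusted p = 5.53e-04) and -0.48 with FGF15 (adjusted p = 0.00363). Cd68 (1449164_at), a glycoprotein of macrophage lysosomes, read 87.1 and 87.7 with FGF19 and 76.7 and 76.2 with FGF15, against 118 and 105 with vehicle, and its differences did not pass (limma adjusted p = 0.18 with FGF19 and adjusted p = 0.0552 with FGF15). With FGF15, Cd68 passed with the filter at the 50th percentile (0.0409) and with probe sets averaged (0.0268). Averaging left the difference of Cd68 itself unchanged, as it has only the probe set named. Mrc1 (1450430_at) and Msr1 (1448061_at) encode the mannose receptor and a class A scavenger receptor. Mrc1, which sinusoidal endothelial cells also express, read 364 and 381 with FGF19 and 417 and 338 with FGF15, against 408 and 413 with vehicle. Here an FGF15 array lay above both vehicle arrays and the FGF19 arrays lay just below them, and the differences were -0.13 with FGF19 (95% interval -0.35 to 0.09, limma adjusted p = 0.412) and -0.12 with FGF15 (95% interval -0.34 to 0.10, limma adjusted p = 0.481). Those intervals do not reach the falls of Clec4f, Vsig4 or Cd5l. Msr1 read 89.2 and 73.3 with FGF19 and 95.9 and 82.4 with FGF15, against 91.0 and 122 with vehicle (limma adjusted p = 0.246 with FGF19 and adjusted p = 0.475 with FGF15), and its 4 probe sets did not run the same way.

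Of the 4 genes of Fc receptors and their adaptors, 2 fell with each hormone, the adaptors Fcer1g and Tyrobp. Tyrobp (1450792_at), a signalling chain for activating receptors of myeloid cells, read 134 and 150.1 with FGF19 and 159 and 155 with FGF15, against 228 and 216 with vehicle (log2 difference -0.55 ± 0.10 with FGF19, limma adjusted p = 0.0053, and -0.43 ± 0.10 with FGF15, limma adjusted p = 0.0202). The call with FGF19 ended without vehicle replicate 1 (0.0511). The call with FGF15 ended without any 1 vehicle or FGF15 array (0.0549 to 0.125) and under 2 of the 12 other alternatives (0.0511 to 0.0716). Fcer1g (1418340_at), the chain that Fc receptors share, read 141 and 138 with FGF19 and 169 and 106 with FGF15, against 229 and 209 with vehicle and lay near the threshold (limma adjusted p = 0.0455 with FGF19 and adjusted p = 0.0365 with FGF15). Its call with FGF19 ended without any 1 vehicle or FGF19 array (0.112 to 0.209) and under 6 of the 12 other alternatives (0.0517 to 0.12), and was not made in the fit over all probe sets (0.0517). The call with FGF15 ended without vehicle replicate 1 (0.183), without vehicle replicate 2 (0.103), without FGF15 replicate 2 (0.16), without FGF19 replicate 1 (0.0592) or without FGF19 replicate 2 (0.0588), and under 3 of the 12 other alternatives (0.0584 to 0.108). The IgG receptors Fcgr1 (1417876_at) and Fcgr3 (1448620_at) did not pass. Fcgr1, of high affinity, read 21.3 and 25.3 with FGF19 and 24.3 and 25.1 with FGF15, against 50.5 and 43.8 with vehicle (limma adjusted p = 0.0637 with FGF19 and adjusted p = 0.0862 with FGF15). Fcgr1 passed without an intensity trend (0.0299 with FGF19 and 0.0392 with FGF15) and with probe sets averaged (0.0341 and 0.0472). Fcgr1 has only the probe set named, so averaging left its own differences unchanged. Fcgr3, of low affinity, read 63.9 and 82.6 with FGF19 and 75 and 85.5 with FGF15, against 102 and 105 with vehicle (limma adjusted p = 0.103 and adjusted p = 0.231). In both, all 4 hormone arrays were below both vehicle arrays.

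Of the 7 genes expressed in leukocytes at large, 2 fell with FGF19 and 3 with FGF15. Itgb2 (1450678_at), the β chain of leukocyte integrins, read 63.5 and 74.1 with FGF19 and 59.8 and 63.0 with FGF15, against 125 and 102 with vehicle. It fell with FGF19 (-0.53 ± 0.14, limma adjusted p = 0.0317) and with FGF15 (-0.64 ± 0.14, limma adjusted p = 0.0145). These calls ended with FGF19 without vehicle replicate 1 (0.201), without vehicle replicate 2 (0.053), without FGF19 replicate 1 (0.171) or without FGF19 replicate 2 (0.0743), and with FGF15 without vehicle replicate 1 (0.116), without FGF15 replicate 1 (0.056) or without FGF15 replicate 2 (0.0513). The FGF19 call of Itgb2 also ended under 4 of the 12 other alternatives (0.07 to 0.0857). Laptm5 (1426025_s_at), a lysosomal membrane protein of blood cells whose probe set can bind related transcripts, read 96.3 and 85.9 with FGF19 and 94.3 and 88.8 with FGF15, against 135 and 213 with vehicle. The vehicle arrays were far apart, and the falls of Laptm5 (limma adjusted p = 0.0189 with FGF19 and adjusted p = 0.0212 with FGF15) ended with FGF19 without vehicle replicate 2 (0.115), without FGF19 replicate 1 (0.0696) or without FGF19 replicate 2 (0.108), and with FGF15 without vehicle replicate 2 (0.131), without FGF15 replicate 1 (0.0601) or without FGF15 replicate 2 (0.0954). They also ended under 2 of the 12 other alternatives (0.0524 to 0.0674) for FGF19 and under 2 of the 12 other alternatives (0.0567 to 0.0724) for FGF15. The other probe sets of Laptm5, 1417721_s_at and 1436905_x_at, gave -0.52 and -0.49 with FGF19 (limma over all probe sets, adjusted p = 0.146 and 0.0714) and -0.61 and -0.77 with FGF15 (adjusted p = 0.0986 and 0.0119). Coro1a (1416246_a_at), an actin regulator, read 62.4 and 55.1 with FGF19 and 41.4 and 44.3 with FGF15, against 77.4 and 78.7 with vehicle. Its fall with FGF15 (-0.56 ± 0.14, limma adjusted p = 0.0265) ended without any 1 vehicle or FGF15 array (0.0774 to 0.113) and under 5 of the 12 other alternatives (0.0583 to 0.0787), and with FGF19 it did not pass (-0.28 ± 0.14, limma adjusted p = 0.217).

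The other 4 leukocyte genes passed with neither hormone. Ptprc (1422124_a_at), the leukocyte common antigen, read 107 and 102 with FGF19 and 132 and 93.7 with FGF15, against 135 and 128 with vehicle, so that 1 FGF15 array lay between the vehicle arrays and the other below them (95% interval -0.57 to 0.05 for the difference with FGF19 and 95% interval -0.50 to 0.12 with FGF15). Spi1 (1418747_at), which encodes PU.1, read 46.8 and 52.2 with FGF19 and 44.9 and 53.7 with FGF15, against 72.4 and 71.8 with vehicle. All hormone arrays of Spi1 lay below both vehicle arrays, and the differences were -0.35 ± 0.14 with FGF19 (limma adjusted p = 0.135) and -0.36 ± 0.14 with FGF15 (limma adjusted p = 0.141). Aif1 (1418204_s_at), a calcium-binding protein of macrophages on a probe set that can bind related transcripts, read 31.4 and 35.9 with FGF19 and 19.4 and 32.5 with FGF15, against 46.1 and 45.0 with vehicle. Itgam (1422046_at), the α chain of a myeloid integrin, read 14.5 and 18.0 with FGF19 and 18.2 and 22.3 with FGF15, against 19.2 and 26.7 with vehicle, close to the filter on all arrays. For Aif1 and Itgam the offset of 32 is as large as the signals, which limits what these differences can show (limma adjusted p = 0.399 and adjusted p = 0.543 with FGF19, adjusted p = 0.144 and adjusted p = 0.851 with FGF15). The membrane subunits of the phagocyte oxidase did not pass either. Cybb (1422978_at) read 53.3 and 60.0 with FGF19 and 71.4 and 70.3 with FGF15, against 88.6 and 72.3 with vehicle (limma adjusted p = 0.14 and adjusted p = 0.622), and Cyba (1454268_a_at) read 82.6 and 86.7 with FGF19 and 80.5 and 76.5 with FGF15, against 155 and 103 with vehicle (limma adjusted p = 0.0937 and adjusted p = 0.0576). For Cyba the vehicle arrays differed from each other by more than the lower of them did from any hormone array. Without vehicle replicate 2 Cyba passed with both hormones, at adjusted p = 0.0293 with FGF19 and 0.0187 with FGF15. With FGF15 it also passed with the filter at the 50th percentile (0.0433) and with the replicate block (0.0497).

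Of the 4 lysosomal enzymes, 3 fell with FGF19 and 3 with FGF15, but not the same 3. Ctss (1448591_at), the protease cathepsin S of antigen-presenting cells, read 443 and 415 with FGF19 and 499 and 408 with FGF15, against 801 and 745 with vehicle. It fell 1.75-fold with FGF19 (limma adjusted p = 4.58e-04) and 1.66-fold with FGF15 (limma adjusted p = 8.45e-04). Lyz2 (1423547_at), lysozyme of myeloid cells, read 272 and 242 with FGF19 and 343 and 311 with FGF15, against 419 and 446 with vehicle. The FGF19 arrays were the lowest, and the falls were 1.61-fold with FGF19 (limma adjusted p = 8.04e-04) and 1.29-fold with FGF15 (limma adjusted p = 0.0232). The call of Lyz2 with FGF15 ended without vehicle replicate 1 (0.0812), without vehicle replicate 2 (0.14) or without FGF15 replicate 2 (0.127), and under 2 of the 12 other alternatives (0.0884 to 0.107). A near-identical paralog, Lyz1, may share this probe set. Lgmn (1448883_at), the asparaginyl endopeptidase legumain, read 284 and 296 with FGF19 and 179 and 188 with FGF15, against 305 and 302 with vehicle. It fell 1.56-fold with FGF15 (-0.64 ± 0.08, limma adjusted p = 8.44e-04), and with FGF19 the difference was -0.06 ± 0.08 (95% interval -0.24 to 0.13, limma adjusted p = 0.689). Ctsc (1416382_at), the protease cathepsin C, which activates granule proteases, read 919.7 and 947 with FGF19 and 1183 and 1175 with FGF15, against 1144 and 1165 with vehicle. It fell with FGF19 (-0.30 ± 0.06, limma adjusted p = 0.0109), a result lost without vehicle replicate 1 (0.0723) or without vehicle replicate 2 (0.0855) and under 2 of the 12 other alternatives (0.0861 to 0.221), and with FGF15 the difference was 0.03 ± 0.06 (limma adjusted p = 0.813).

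Set side by side, the Kupffer-restricted genes had larger median differences from vehicle than the general myeloid genes. The medians were -0.74 and -0.45 with FGF19, and -0.75 and -0.48 with FGF15, for 6 and 27 genes, beside -0.07 and -0.05 over all genes. Of the Kupffer-restricted genes 5 of 6 fell with each hormone, against 14 of 27 general myeloid genes with FGF19 and 15 of 27 with FGF15. With no offset, the median ratio of mean signals was 0.549 and 0.655 with FGF19 and 0.544 and 0.625 with FGF15, again for Kupffer-restricted and general myeloid genes. The ranges overlapped. With FGF19, Kupffer-restricted genes ran from -1.14 to 0.30 and general myeloid genes from -0.98 to -0.06. With FGF15 the ranges were -0.91 to -0.28 for Kupffer-restricted and -1.21 to 0.03 for general myeloid genes. The difference between the sets was not tested. In all, 17 of the 33 genes fell with both hormones, 4 Kupffer-restricted and 13 general, and 11 passed with neither, all of them general. The shares of all genes that fell with both, passed with neither or kept their calls under every alternative were not computed. The comparisons share the vehicle arrays, so these shares do not follow from those of each comparison. Apart from Mrc1, those 11 averaged 23.0 (Itgam) to 132 (Ptprc) with vehicle, low signals at which the offset understates changes. Genes that fell also had vehicle means in that range, such as Coro1a (78.0) and Itgb2 (114). With no offset, the ratios of the 11 genes to vehicle ran from 0.495 (Fcgr1) to 0.907 (Mrc1) with FGF19. With FGF15 they ran from 0.524 (Fcgr1) to 0.919 (Mrc1). The Kupffer-restricted genes averaged 70.9 (Marco) to 1197 (Cd5l) with vehicle. The part of signal level in the difference between the sets was not tested. For 9 genes both calls were kept under all 18 alternatives: Clec4f, Vsig4, Cd5l, C1qa, C1qb, C1qc, Csf1r, Mpeg1 and Ctss.

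**Figure D2:**
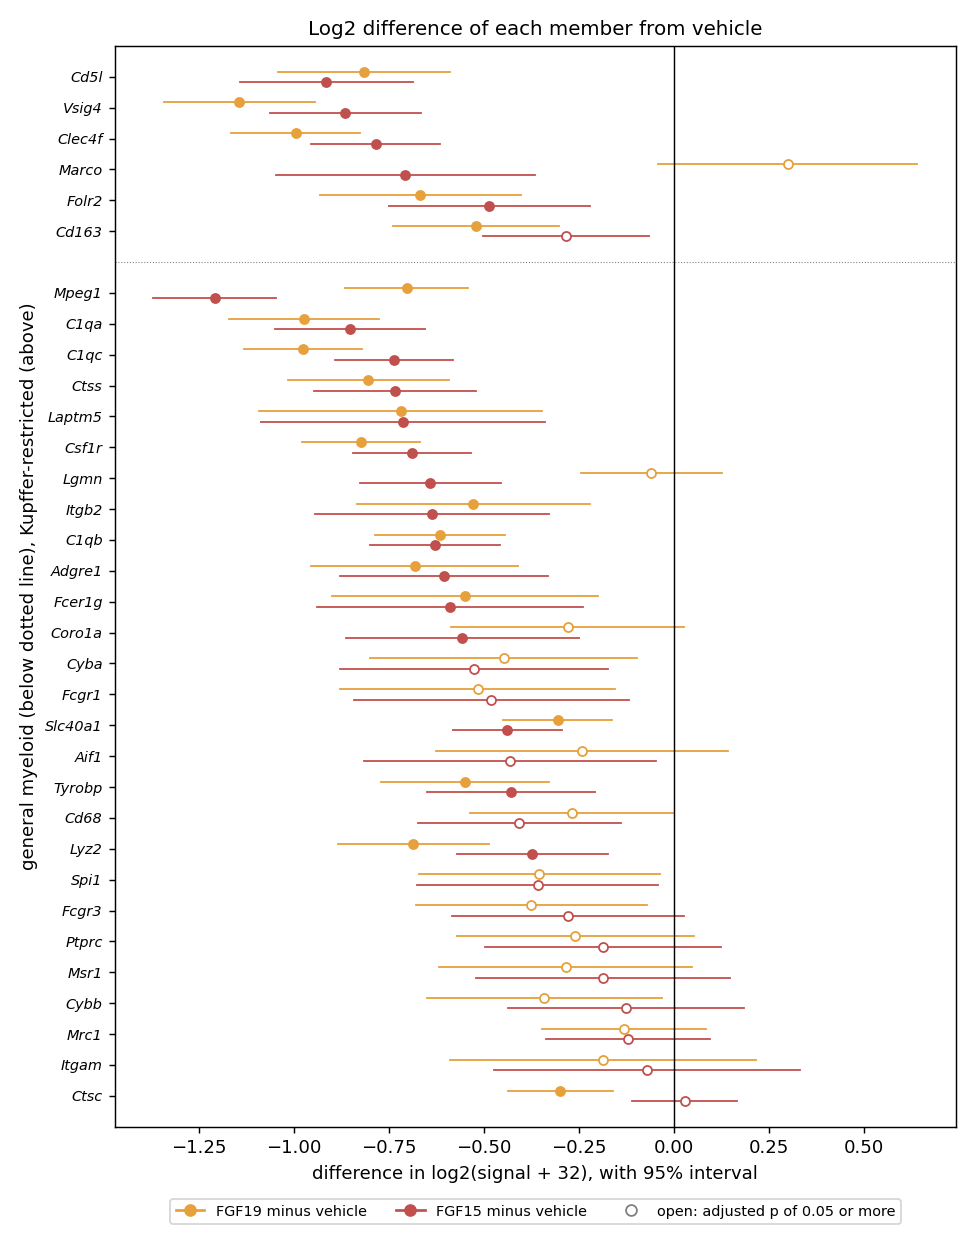
Difference of each of the 33 genes from vehicle in log2(signal + 32), with 95% intervals from the limma fit, FGF19 above FGF15 in each row, Kupffer-restricted genes over the dotted line and general myeloid genes under it. Filled points passed an adjusted p of 0.05. Nearly all points lie left of 0, with Marco (FGF19) and Ctsc (FGF15) to the right of it.

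The hormones were then set against each other. Of the 33 genes, 3 were higher and 1 was lower with FGF19 than with FGF15, where 2.4% and 1.89% of all genes were (4.29% in either direction). Marco had 101 and 88.8 with FGF19 against 25.5 and 37.0 with FGF15, 2.01-fold higher (log2 difference 1.01 ± 0.15, limma adjusted p = 0.00423). It did not pass without FGF19 replicate 1 (0.0604). Lgmn averaged 290.4 ± 8.53 with FGF19 and 183 ± 6.82 with FGF15 (SD, n = 2 each), 1.5-fold higher (0.58 ± 0.08, limma adjusted p = 0.00301). Mpeg1 averaged 433 ± 6.68 with FGF19 and 296 ± 13.0 with FGF15, 1.42-fold higher (0.51 ± 0.07, limma adjusted p = 0.00301), a result lost without an intensity trend in the variance prior (0.0542). Thus Mpeg1 was below vehicle with both hormones and lower with FGF15, while Lgmn was below vehicle with FGF15. Ctsc averaged 933 ± 19.3 with FGF19 and 1179 ± 6.01 with FGF15, 1.25-fold lower (-0.33 ± 0.06, limma adjusted p = 0.0142). The call of Ctsc ended without FGF15 replicate 1 (0.0798), without FGF15 replicate 2 (0.0643) or without FGF19 replicate 1 (0.0658), with centring on medians (0.053) and without an intensity trend (0.146).

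**Figure D3:**
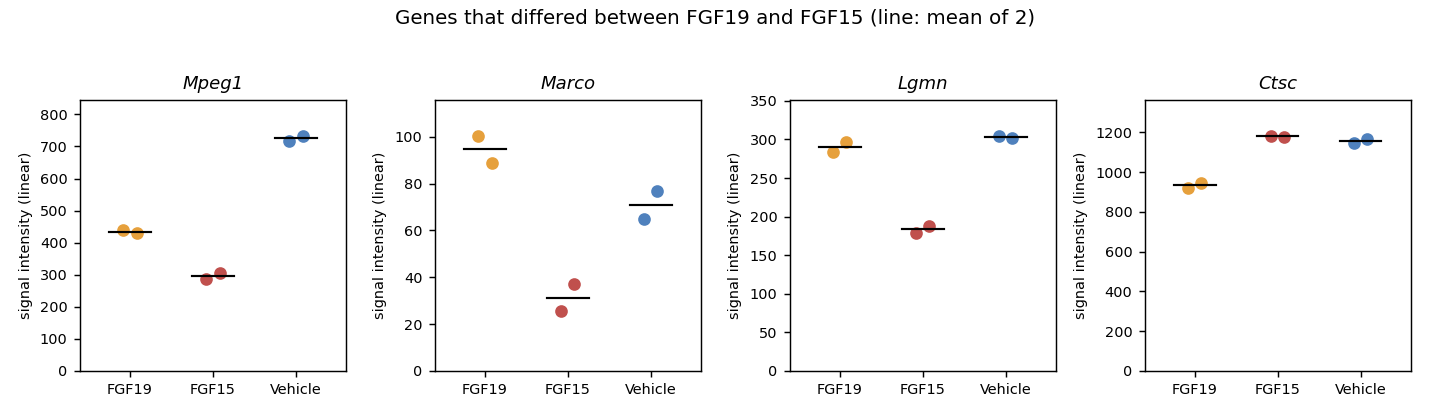
Signal intensity (linear) on each array of the 4 genes whose FGF19 and FGF15 levels differed, with a line at the mean of 2 arrays. Marco, Lgmn and Mpeg1 are lower with FGF15 than with FGF19, and Ctsc is lower with FGF19.

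For the other 29 genes the difference between the hormones did not pass. Clec4f, Vsig4 and C1qc had FGF19 arrays below both FGF15 arrays, at differences of -0.21 (95% interval -0.38 to -0.04, limma adjusted p = 0.189), -0.28 (95% interval -0.48 to -0.08, limma adjusted p = 0.132) and -0.24 (95% interval -0.40 to -0.08, limma adjusted p = 0.0927). Lyz2 also had its FGF19 arrays lowest (-0.31, limma adjusted p = 0.0867). In Coro1a the FGF19 arrays lay above the FGF15 arrays (0.28, limma adjusted p = 0.364). For Csf1r the difference was -0.13 (95% interval -0.29 to 0.02) and for Cd5l 0.10 (95% interval -0.13 to 0.33). Of all 33 genes, 12 had both FGF19 arrays below and 8 above both FGF15 arrays, as did 25.8% and 20.1% of all genes.

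Other genes of the same pathways were read from lists named alongside the 33 genes, against the same shares of all genes as above. Of 16 genes for phagocyte receptors, 13 were tested, 4 fell and 1 rose with FGF19, and 3 fell and 1 rose with FGF15 (median log2 differences -0.31 and -0.41). Cd14, the co-receptor for lipopolysaccharide, fell 1.47-fold with FGF19 (limma adjusted p = 0.0322) and 1.86-fold with FGF15 (limma adjusted p = 0.003). The gene that rose with both hormones was Cd36, a fatty acid transporter and scavenger receptor that hepatocytes also make (2.52-fold and 2.52-fold higher). Of 16 macrophage cytokines and chemokines, 12 were tested, 1 fell and 1 rose with FGF19, and 1 fell and 0 rose with FGF15 (median log2 differences -0.21 and -0.10). Ccl6 fell with both hormones (1.49-fold and 1.44-fold), and Il1rn, the antagonist of the interleukin-1 receptor, rose 1.93-fold with FGF19 (limma adjusted p = 0.00345), against 0.32 on the log2 scale with FGF15 (limma adjusted p = 0.23). Of 16 genes for Fc receptor and integrin signalling, 12 were tested, 0 fell and 0 rose with FGF19, and 0 fell and 0 rose with FGF15 (median log2 differences -0.17 and -0.18). With no call in that list in limma, the numbers at an unadjusted p under 0.05 were 2 lower with FGF19 and 2 lower with FGF15 of 12 tested, where 17.1% and 15.1% of all genes were lower.

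Of 16 lysosomal proteins outside the 33 genes, 13 were tested, 2 fell and 0 rose with FGF19, and 4 fell and 0 rose with FGF15 (median log2 differences -0.12 and -0.22). The proteases Ctsb (1.35-fold and 1.35-fold) and Ctsl (1.25-fold and 1.27-fold) fell with both hormones. Of 7 genes of MHC class II, 6 were tested, 1 fell and 0 rose with FGF19, and 2 fell and 0 rose with FGF15 (median log2 differences 0.05 and -0.30), with Cd74, the invariant chain, lower with both (1.39-fold and 1.58-fold). Of 6 genes of the C1 complex and classical complement, 4 were tested, 3 fell and 0 rose with FGF19, and 2 fell and 0 rose with FGF15 (median log2 differences -0.40 and -0.41). The C1r protease gene C1ra, which hepatocytes express, fell 1.43-fold with FGF19 and 1.53-fold with FGF15, beside the chains of C1q. Of 16 macrophage growth factors and transcription factors, 15 were tested, 3 fell and 2 rose with FGF19, and 2 fell and 2 rose with FGF15 (median log2 differences -0.11 and -0.11). Here Cebpb (0.30 with FGF19 and -0.41 with FGF15) and Cebpa (-0.59 and 0.28), which hepatocytes also express, changed in opposite directions with the hormones, and Id3 rose with both. Of 9 genes of heme and iron handling, 8 were tested, 1 fell and 2 rose with FGF19, and 1 fell and 1 rose with FGF15 (median log2 differences -0.18 and -0.15). Hmox1, heme oxygenase, fell 2.13-fold with FGF15 (limma adjusted p = 5.42e-05), and Tfrc, the transferrin receptor, rose with both.

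Markers of other cells that whole liver holds were read as well. Of 11 neutrophil markers, 5 were tested, 1 fell and 0 rose with FGF19, and 3 fell and 0 rose with FGF15 (median log2 differences -0.34 and -0.64). Their summed signal ranged 479.5 to 511 with FGF19, 294 to 330.1 with FGF15 and 599 to 616 with vehicle. Most of that sum came from S100a8 and S100a9, which averaged 295 and 169 with vehicle. The 2 markers not called with FGF15 had low vehicle means, 43.2 and 20.3, and differed by -0.06 and 0.06 with FGF15. Their differences for FGF19 minus FGF15 were -0.41 and 0.10, and neither passed. S100a8 fell with both hormones (1.40-fold and 2.07-fold), and S100a9 fell 1.76-fold with FGF15. Both were higher with FGF19 than with FGF15, by 0.56 for S100a8 and 0.93 for S100a9 on the log2 scale (limma adjusted p = 0.00822 and adjusted p = 7.07e-04), as Marco, Lgmn and Mpeg1 were. Of the 7 hepatocyte markers tested, 1 was higher with FGF19 than with FGF15, Tat (0.90, limma adjusted p = 2.22e-04). The differences of the hepatocyte markers were below 0 for 6 of the 7 (median -0.13). Among the 15 sinusoidal endothelial markers 1 was higher, Lyve1 (0.40, limma adjusted p = 0.0345), and 8 of the 15 differences were below 0 (median -0.01). Of all genes, 2.4% were higher. In the same comparison 1 stellate cell marker was lower with FGF19. Of 7 monocyte markers, 3 were tested, 1 fell and 0 rose with FGF19, and 1 fell and 0 rose with FGF15 (median log2 differences -0.12 and -0.29), with summed signals of 179 to 211, 151 to 156 and 309.7 to 337 for FGF19, FGF15 and vehicle. The gene that fell was Plac8 (1.68-fold and 1.97-fold), while Ccr2 and Cx3cr1, which define monocytes, had mean vehicle signals of 24.3 and 18.9, near the filter. For comparison, the summed signal of the 6 Kupffer-restricted genes was 1574 to 1614 with FGF19, 1605 to 1715 with FGF15 and 2935 to 3009 with vehicle. The part of neutrophils and monocytes in the falls of the 33 genes, and in the differences between the hormones, was not tested. T and NK cell markers (7 of 10 tested), B cell markers (2 of 6) and dendritic cell markers (2 of 7) had 1 call in all, a rise of Ccl5 with FGF19 (limma adjusted p = 0.0433).

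Of 15 sinusoidal endothelial markers, 15 were tested, 1 fell and 0 rose with FGF19, and 2 fell and 0 rose with FGF15 (median log2 differences -0.15 and -0.08). Lyve1, a hyaluronan receptor, fell 1.52-fold with FGF15, and Dnase1l3, a secreted nuclease that macrophages also make, fell with both hormones (1.36-fold and 1.40-fold). Of 11 stellate cell markers, 11 were tested, 3 fell and 1 rose with FGF19, and 4 fell and 0 rose with FGF15 (median log2 differences -0.19 and -0.24), with Col3a1, a fibrillar collagen, 1.54-fold and 2.03-fold lower. Of 9 hepatocyte markers, 7 were tested, 0 fell and 0 rose with FGF19, and 1 fell and 0 rose with FGF15 (median log2 differences -0.28 and -0.18). The one that fell, with FGF15, was Tat, the hormone-regulated tyrosine aminotransferase. At an unadjusted p under 0.05, 5 of the 7 were lower with FGF19 and 1 with FGF15, where 17.1% and 15.1% of all genes were. With each hormone both its arrays lay below both vehicle arrays for 6 of the 7. They did so for 37.2% of all genes with FGF19 and 32.7% with FGF15. The median difference of the hepatocyte markers was -0.28 with FGF19 and -0.18 with FGF15. The summed signal of the hepatocyte markers was 55617 to 72106 with FGF19, 63785 to 68808 with FGF15 and 75540.3 to 76484 with vehicle. The low end with FGF19 was replicate 1, the array that stood apart in its β-actin control. All 7 markers read lower on it than on FGF19 replicate 2, such as Cyp2e1 at 7307 and 9878. Without FGF19 replicate 1, 15 of the 33 macrophage genes fell with FGF19, against 19 with it. Cholangiocyte markers had no call among 4 tested in limma (at an unadjusted p under 0.05, 1 lower with FGF19 and 0 with FGF15, where 17.1% and 15.1% of all genes were lower), and of 2 erythroid markers Alas2 rose with FGF19 (1.33-fold).

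**Figure D4:**
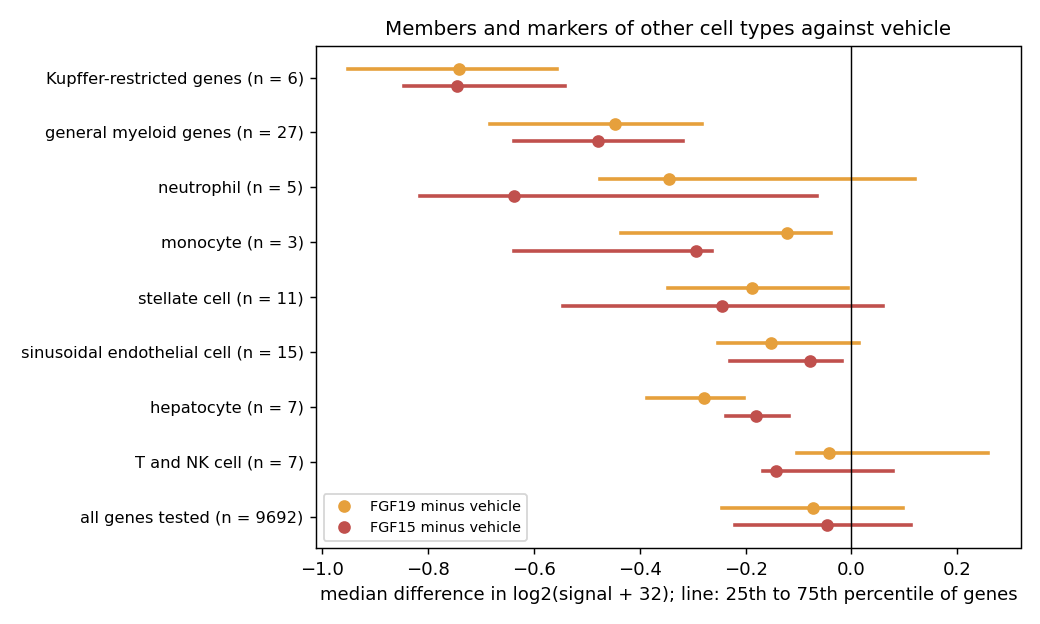
Median difference from vehicle in log2(signal + 32) of the Kupffer-restricted and general myeloid genes, of marker lists of other cells and of all genes tested, FGF19 above FGF15 in each row. Lines span the 25th to 75th percentile of the genes of a list and are no error of the median. The Kupffer-restricted genes have the lowest medians, at -0.74 and -0.75.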

How the data were processed

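Whole-liver RNA of 6 arrays, 2 each for FGF19, FGF15 and vehicle, was measured on a 1-colour Affymetrix array, and arrays were grouped by their titles. The deposited values are signal intensities on a linear scale that the authors had scaled to one trimmed mean per array (about 200.1 on each after trimming at both ends), judging by the values. Neither the software behind the probe summaries nor a detection call is named in the labels. Probe sets were named through the platform annotation and RefSeq gene identifiers, and 20380 had exactly 1 gene, 691 several and 1555 none, besides 64 controls. A gene took its value from whichever of its probe sets had the highest mean. A filter at the 25th percentile of the mean log2(signal + 32), taken over every probe set on the array, removed 2701 of 12393 genes. A linear model (lmFit and a trended eBayes, limma 3.58.1, R 4.3.3) was fitted to all 6 arrays with group as the term, leaving 3 residual degrees of freedom beside 6.82 from the prior. The median standard error of a difference was 0.13, and having 2 arrays a group bounds the precision. The p-values are two-sided and were adjusted (Benjamini-Hochberg) over 9692 genes in each of 3 comparisons. The fit was tested on simulated data with known differences, whose sizes were changed after a first version missed its mark. Large differences were called and most of the smallest were not, so a gene that did not pass may still differ. The 33 genes, the other lists and the tests were chosen with earlier results of these data known. All 33 genes are named. From each other list up to 3 genes with the smallest p against vehicle could be named. Alternatives covered offset, scaling, filter, choice of probe set, variance prior, arrays in the fit, the replicate block, the threshold and each array left out. A further alternative, cyclic loess, was chosen after seeing the data. Promoter windows were searched for exact letters on both strands in Python 3.11.15, and figures were drawn with matplotlib 3.10.9.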

Additional observations from a re-analysis of the deposited data

Results flagged for a closer look

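In 4 of the 33 genes the effect of FGF19 differed from that of FGF15 by a test of the difference itself. The log2 difference, FGF19 minus FGF15, was 1.01 ± 0.15 for Marco (SE, n = 2 arrays per group, limma adjusted p = 0.00423), 0.58 ± 0.08 for Lgmn (adjusted p = 0.00301), 0.51 ± 0.07 for Mpeg1 (adjusted p = 0.00301) and -0.33 ± 0.06 for Ctsc (adjusted p = 0.0142). For Marco both FGF19 arrays lay above and both FGF15 arrays below the vehicle arrays, and for Ctsc it was the other way round. The FGF15 arrays of Marco, at 25.5 and 37.0, were near the offset of 32. The groups are too small for a search for single outlying arrays.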

How the results depend on the processing

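No direction of a called difference among the 33 genes turned under any alternative. The number that fell ranged over 13 alternatives (the fit over all probe sets and the 12 others that leave out no array) from 15 to 21 with FGF19 and from 16 to 24 with FGF15, lowest with arrays centred on their medians (for FGF15 also without a filter) and highest at an adjusted p under 0.10. With 1 array left out it ranged from 13 to 19 with FGF19 and from 12 to 19 with FGF15, where the lone array of a group was taken to vary like the others. The number lower with FGF19 than with FGF15 was 1, but 0 with centring on medians or without an intensity trend, 3 at an adjusted p under 0.10, and 0 to 1 with 1 array left out. The number higher was 2 or 3 throughout. With the replicate block 19 genes fell with FGF19 and 21 with FGF15, and 3 were higher and 1 lower with FGF19 than with FGF15. The same-numbered arrays share only a number, and their deviations from the group means correlated across genes at -0.02 for FGF19 and vehicle, 0.08 for FGF15 and vehicle and 0.05 for FGF19 and FGF15. The Kupffer-restricted median for FGF19 minus vehicle was -0.74, with a range of -0.76 to -0.72 when 1 array was left out, and moved to -0.79 with an offset of 16, -0.66 with an offset of 64, -0.59 with arrays centred on their medians. The general myeloid median for FGF19 minus vehicle was -0.45, with a range of -0.50 to -0.41 when 1 array was left out, and moved to -0.50 with an offset of 16, -0.35 with an offset of 64, -0.36 with quantile normalization, -0.30 with arrays centred on their medians, -0.49 with a filter at the 50th percentile, -0.49 with the probe sets of a gene averaged, -0.48 with all probe sets, -0.34 with cyclic loess normalization. The Kupffer-restricted median for FGF15 minus vehicle was -0.75, with a range of -0.78 to -0.66 when 1 array was left out, and moved to -0.85 with an offset of 16, -0.62 with an offset of 64, -0.70 with quantile normalization, -0.63 with arrays centred on their medians, -0.71 with cyclic loess normalization. The general myeloid median for FGF15 minus vehicle was -0.48, with a range of -0.48 to -0.42 when 1 array was left out, and moved to -0.60 with an offset of 16, -0.41 with an offset of 64, -0.45 with quantile normalization, -0.36 with arrays centred on their medians, -0.54 with a filter at the 50th percentile, -0.51 with all probe sets, -0.44 with cyclic loess normalization. The Kupffer-restricted median for FGF19 minus FGF15 was -0.20, with a range of -0.22 to -0.16 when 1 array was left out. The general myeloid median for FGF19 minus FGF15 was -0.04, with a range of -0.0582 to 0.0259 when 1 array was left out, and moved to -0.00759 with quantile normalization, -0.00681 with arrays centred on their medians, -0.00666 with cyclic loess normalization. Only the last of these changed sign, at 0.0259 without FGF15 replicate 1 and 0.0156 without FGF19 replicate 1. The cause of the lost calls was not tested. Low signals limit the genes near the filter, and 4 genes (Fcgr1, Marco, Aif1 and Itgam) had an array under 32.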

Other observations

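Probe sets of 1 gene did not always give the same size of change. For Slc40a1, 1448566_at read 342 and 349 with FGF19 and 399 and 395 with FGF15, against 594 and 544 with vehicle, with differences as given above. For Coro1a a second probe set, 1455269_a_at, read 34.1 and 29.6 with FGF19 and 9.0 and 5.48 with FGF15, against 30.8 and 43.2 with vehicle, and its difference between the hormones was 0.70 (limma over all probe sets, adjusted p = 0.072), against 0.28 on the one used above. The probe sets of Msr1 gave -0.19, 0.20, -0.41 and -0.18 with FGF15, so that they differed in sign, and none of them passed.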
